A study of Mus musculus with 7 samples.

Results

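The 10 genes described here, of the neuronal cytoskeleton and of axon growth, were read from the contused spinal cord of 3 mice labelled Bmal1-/- and 4 wild type (WT) mice. They were chosen by symbol: Nefl, Nefm, Nefh, Map2, Tubb3, Rbfox3, Eno2, Gap43, Stmn2 and Sprr1a. These are 10 of the 21965 genes in the count table, and all 10 passed the filter on low counts. The Bmal1-/- mice carry a germline deletion in Arntl, the gene for the circadian transcription factor BMAL1, on a C57BL/6 background (B6.129-Arntl tm1Bra/J), so every cell type of the mouse carries it and not only neurons. The WT mice were C57BL/6, the J substrain in both genotypes by the study's methods. One of the 4 was a littermate of the knockouts and the others were bought in, and the labels do not say which library is which, so origin and genotype cannot be told apart here. Mice were 8 to 10 weeks old, with 2 females and 1 male labelled Bmal1-/- and 2 females and 2 males among the WT. Every mouse had a moderate contusion at T9 (50 kdyn, 400 to 600 µm displacement), and RNA of the 5 mm of cord around the epicenter was sequenced at 3 days post injury (dpi 3), with 1 library per mouse. No uninjured cord was used here, so the values compare genotypes after injury and not injured with intact tissue.

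Neurofilaments are the intermediate filaments of neurons. The light chain NEFL forms the core with the medium and heavy chains NEFM and NEFH, and together they set the caliber of large myelinated axons. MAP2 binds and stabilizes microtubules in dendrites and cell bodies, and TUBB3 is the neuronal class III beta-tubulin. RBFOX3 (NeuN) is a splicing factor of neuronal nuclei and ENO2 is the neuronal enolase of glycolysis. GAP43 is a growth cone protein, STMN2 regulates microtubule dynamics in growing axons, and SPRR1A is an epithelial cornified envelope protein that injured peripheral neurons switch on. Contusion kills neurons and cuts axons at the epicenter, and RNA for these proteins is made mostly in cell bodies, so a bulk level reflects both how many neurons remain and how much RNA each holds. Fewer cells and less RNA per cell cannot be told apart in bulk tissue.

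The libraries held 38529644 to 44096737 counts. The members together took 0.311% to 0.732% of them, with 1201 to 65339 counts per member and library, so the spread between mice limits precision here more than counting error. A level is a CPM value, in which counts were scaled to a common library size after TMM normalization. The targeted gene does not check the labels: its count, taken over all exons including those outside the deletion, was higher in the libraries labelled Bmal1-/- (22.5 to 24.2 CPM) than in the WT (11.9 to 15.3 CPM). Nr1d1 and Dbp, whose transcription BMAL1 drives, were counted at 5.31 to 7.28 and 7.80 to 8.83 CPM in the libraries labelled Bmal1-/- and at 29.2 to 36.8 and 25.3 to 39.3 CPM in the WT. WT replicates 1, 2 and 3 stood apart in ways that touch the members. WT replicate 3 had the lowest level of 24 of the 24 general neuron genes tested, with a summed level of 4464 CPM against 7824 to 8787 CPM in the other WT and 9152 to 11858 CPM in the Bmal1-/- libraries. It also had the highest summed level of 14 macrophage and microglia markers (13583 CPM against 6211 to 9308 CPM in the other WT and 7824 to 9067 CPM in Bmal1-/-). Most of that sum was Spp1 (8486 CPM) and Lyz2 (2583 CPM). Not all of the markers were highest there: Csf1r, Cx3cr1, P2ry12 and Tmem119 were higher in WT replicate 4, and Gpnmb in Bmal1-/- replicate 2. WT replicates 1 and 2 held markers of sensory neurons, whose cell bodies lie in the dorsal root ganglia outside the cord: the 12 markers summed to 1002 and 656 CPM there, against 173 and 157 CPM in WT replicates 3 and 4 and 218 to 238 CPM in the Bmal1-/- libraries. Most of the sum in the Bmal1-/- libraries was Prph, Calca, Tac1 and Pvalb. Scn10a had 0, 0 and 1 counts there and 127 and 37 in WT replicates 3 and 4. The sums therefore do not order these libraries by ganglion RNA. Values are therefore also given without WT replicate 3, and without WT replicates 1 and 2, the latter an alternative chosen after seeing the data. That alternative leaves no female WT.

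Every member had a higher mean in the Bmal1-/- libraries than in the WT, and none passed the test. With edgeR's quasi-likelihood test and Benjamini-Hochberg adjustment, 0 of the 10 were called at 0.05, where 1.57% of the 15743 genes tested were called in either direction. At an unadjusted p under 0.05, 4 members were higher (Map2, Eno2, Gap43 and Sprr1a), where 8.64% of all genes were higher by that rule. DESeq2 called 2 of the 10, Gap43 and Sprr1a, where it called 3.5% of its genes higher, and limma-voom called 0. For 5 members (Nefm, Map2, Eno2, Gap43 and Sprr1a) all Bmal1-/- values lay above all WT values, which held for 13.4% of all genes. Over all 10, the median change was 0.44 on the log2 scale, where that of all genes was -0.01 with 48.9% of genes positive. The median was 0.30 without WT replicate 3 and 0.79 without WT replicates 1 and 2. The 10 members are not independent, since they were measured in the same libraries, and WT replicate 3 was the lowest of the 7 for 8 of them.

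**Figure D1:**
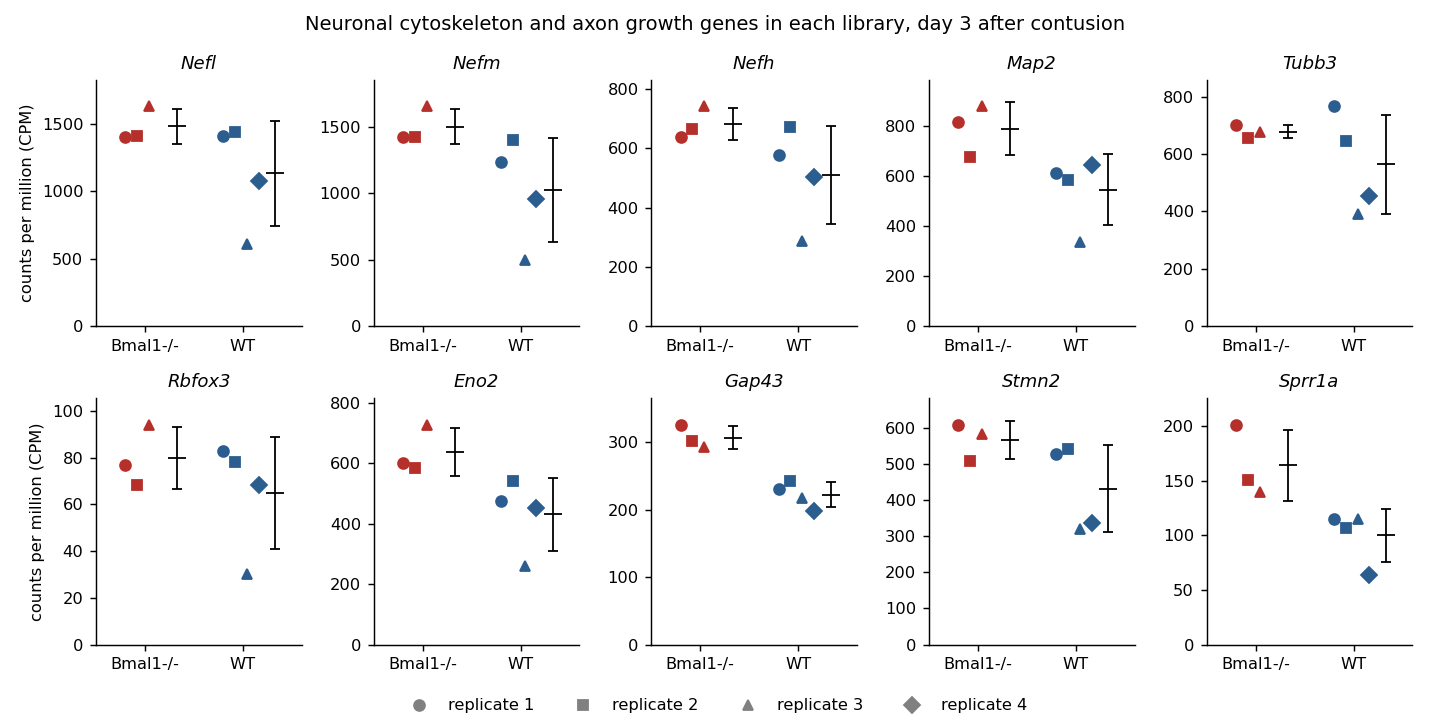
CPM of each gene (y axes, from 0, each with its own scale) in the 3 Bmal1-/- libraries (red) and the 4 WT libraries (blue), with the replicate number as the symbol and the mean and SD in black. WT replicate 3 (blue triangle) is the lowest library for 8 genes but not for Gap43 or Sprr1a, where WT replicate 4 (blue diamond) is.

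Among the neurofilament genes, Nefl encodes the light chain (chr14:68083863-68089095, plus strand, GRCm38). Its level was 1403, 1407 and 1631 CPM in Bmal1-/- replicates 1 to 3 and 1413, 1441, 606 and 1073 CPM in WT replicates 1 to 4. The groups overlapped, since WT replicates 1 and 2 stood level with the lower pair of Bmal1-/- libraries, and WT replicate 3 was far below the rest at 46.3% of the mean of the other WT. Mean levels were 1480.2 ± 130.2 in Bmal1-/- (SD, n = 3) and 1134 ± 389 in WT (SD, n = 4), and the log2 fold change was 0.39 (SE, the standard error, 0.28; adjusted p = 0.421 from edgeR). It was 0.18 without WT replicate 3 and 0.82 without WT replicates 1 and 2.

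Nefm, the medium chain (chr14:68082590-68124846, minus strand), was counted at 1426, 1428 and 1658 CPM in Bmal1-/- and at 1234, 1404, 501 and 959 CPM in WT. All Bmal1-/- libraries were above all WT libraries, by a narrow gap to WT replicate 2. The log2 fold change was 0.55 (SE 0.32, adjusted p = 0.329 from edgeR), and 0.33 without WT replicate 3. One annotated Nefm transcript runs across Nefl on the other strand, and 1108 exonic bases belong to both genes. The libraries were stranded, but the strand setting of the counting is not given in the sources used here, so how reads of those bases were shared between Nefl and Nefm is uncertain. Nefh, the heavy chain (chr11:4938754-4948064, minus strand), ranged from 637 to 742 CPM in Bmal1-/- and from 285 to 672 CPM in WT, so the groups overlapped. Its log2 fold change was 0.42 (SE 0.26, adjusted p = 0.357), and 0.22 without WT replicate 3.

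The chains can also be set against each other inside a library, where depth has no part. The ratio of Nefm to Nefl counts was 1.015 to 1.017 in the 3 Bmal1-/- libraries and 0.826 to 0.974 in the 4 WT libraries, with means of 1.016 ± 0.00109 (SD, n = 3) and 0.892 ± 0.0618 (SD, n = 4). The groups did not overlap, and the Bmal1-/- values were nearly the same while the WT values were scattered, lowest in WT replicate 3. The ratio was not tested. It was the only one of the ratios computed here without overlap, and no share of gene pairs that split the groups was computed. The exonic bases that Nefl and Nefm share enter it, and how their reads were counted is uncertain. The ratio of Nefh to Nefl gave no such split, at 0.454 to 0.472 in Bmal1-/- and 0.409 to 0.471 in WT.

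Of the microtubule genes, Map2 (chr1:66175273-66442583, plus strand) was counted at 816, 675 and 880.3 CPM in Bmal1-/- and at 614, 586, 337 and 646 CPM in WT. The groups did not overlap, and Bmal1-/- replicate 2 stood close to WT replicate 4. Mean levels were 790.4 ± 105 in Bmal1-/- (SD, n = 3) and 546 ± 141 in WT (SD, n = 4), and the log2 fold change was 0.53 (SE 0.23, unadjusted p = 0.0480, adjusted p = 0.236 from edgeR). Without WT replicate 3 it was 0.36. Tubb3 (chr8:123411424-123422015, plus strand) was counted at 701, 657 and 678 CPM in Bmal1-/- and at 767, 646, 392 and 453 CPM in WT. The highest library of all was WT replicate 1, and both male WT libraries were low. Its log2 fold change was 0.26 (SE 0.23, adjusted p = 0.481), with 0.12 without WT replicate 3 and 0.45 without WT replicate 1.

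The markers of the neuronal cell body gave one small and one larger difference. Rbfox3 (chr11:118489762-118911597, minus strand) ranged from 68.4 to 94.2 CPM in Bmal1-/- and from 30.0 to 82.9 CPM in WT, and 3 of the 4 WT libraries lay inside the Bmal1-/- range. Its log2 fold change was 0.30 (SE 0.32, 95% interval -0.45 to 1.05, adjusted p = 0.570), and it was 0.06 without WT replicate 3, which held 39.2% of the mean of the other WT. Eno2 (chr6:124760053-124769673, minus strand) was counted at 601, 585 and 728 CPM in Bmal1-/- and at 474, 541, 260.1 and 451 CPM in WT, without overlap. Its log2 fold change was 0.56 (SE 0.23, unadjusted p = 0.0456, adjusted p = 0.233), and 0.38 without WT replicate 3.

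Of the axon growth genes, Gap43 and Sprr1a changed little when WT replicate 3 was left out. Gap43 (chr16:42248442-42340651, minus strand) was counted at 327, 302 and 294 CPM in Bmal1-/- and at 231, 243, 218 and 198 CPM in WT. Both groups were tight and did not overlap, with a coefficient of variation of 5.57% in Bmal1-/- and 8.55% in WT, where those of the neurofilament genes in WT ran from 32.3% to 38.5%. Mean levels were 307 ± 17.1 in Bmal1-/- (SD, n = 3) and 223 ± 19.0 in WT (SD, n = 4), and the log2 fold change was 0.47 (SE 0.09, 95% interval 0.26 to 0.67). Its unadjusted p was 0.000898 and its adjusted p 0.0546 from edgeR, just outside the threshold. Over 15 alternative settings the adjusted p ran from 2.24e-05 to 0.414, and Gap43 was called in 3 of them: DESeq2, RLE size factors (adjusted p = 0.0488) and without WT replicate 3 (0.0367, log2 fold change 0.46).

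Sprr1a (chr3:92483952-92485895, minus strand) had the largest log2 fold change of the 10 with all libraries, but not without Bmal1-/- replicate 1 (where Eno2 and Nefm were larger), without WT replicate 4 (Map2 and Eno2) or without WT replicates 1 and 2 (Nefm). With the replicate number as a block, Map2 (0.66), Nefm (0.64) and Eno2 (0.64) were also larger than Sprr1a (0.53). Sprr1a was counted at 201, 151 and 139.7 CPM in Bmal1-/- and at 114, 107, 114 and 63.8 CPM in WT. No WT library reached the lowest Bmal1-/- library, Bmal1-/- replicate 1 stood above its group and WT replicate 4 below its own. Mean levels were 164 ± 32.8 in Bmal1-/- (SD, n = 3) and 99.9 ± 24.3 in WT (SD, n = 4), and the log2 fold change was 0.71 (SE 0.22, unadjusted p = 0.0139, adjusted p = 0.157 from edgeR). It was 0.54 without Bmal1-/- replicate 1, 0.55 without WT replicate 4 and 0.79 without WT replicate 3. Sprr1a is also a gene of keratinocytes. Of 12 keratinocyte markers 5 passed the filter, and of these edgeR called 0 (2 at an unadjusted p under 0.05) and DESeq2 1. Another 2 of the 12 had no count in any library. The summed level of the list was 12.2 to 14.2 CPM in Bmal1-/- and 7.49 to 13.4 CPM in WT. The part of such cells in the difference of Sprr1a was not tested.

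Stmn2 (chr3:8509360-8561606, plus strand) was counted at 608, 508 and 582 CPM in Bmal1-/- and at 528, 541, 320 and 336 CPM in WT. The WT libraries fell into a higher female pair and a lower male pair, and the female pair overlapped the Bmal1-/- range. The log2 fold change was 0.39 (SE 0.21, adjusted p = 0.313), and 0.27 without WT replicate 3.

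**Figure D2:**
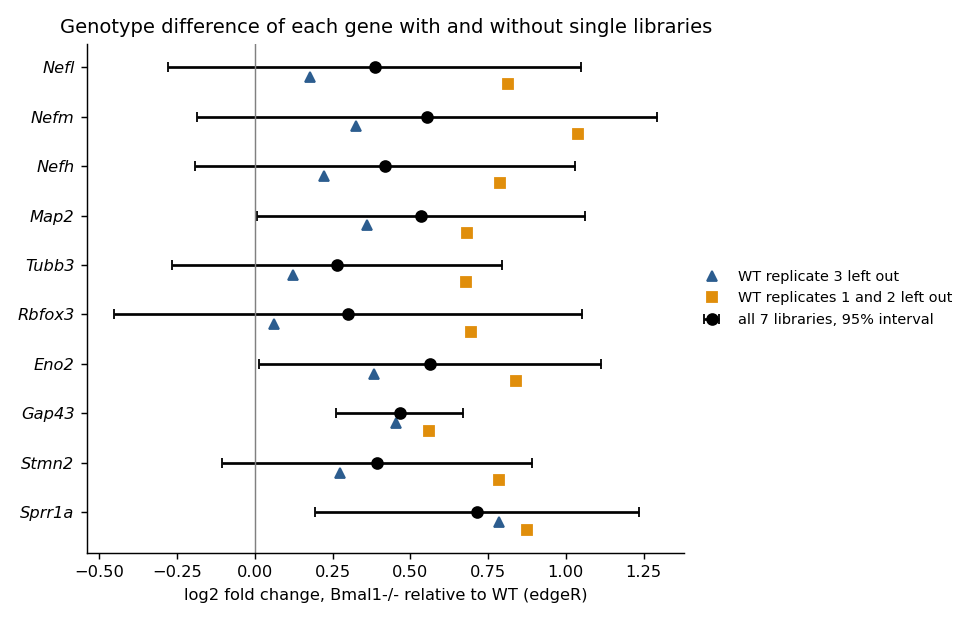
log2 fold change of Bmal1-/- relative to WT for each gene (x axis) with all 7 libraries (black, with the 95% interval of edgeR's test), without WT replicate 3 (blue triangles) and without WT replicates 1 and 2 (orange squares). All points are above 0, the interval excludes 0 for Map2, Eno2, Gap43 and Sprr1a, and the triangles lie left of the black points for all but Sprr1a.

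WT replicate 3 was not equally low for all members. It held 39.2% to 54.8% of the mean of the other WT for Nefl, Nefm, Nefh, Map2, Rbfox3 and Eno2, and 63.0% and 68.3% for Tubb3 and Stmn2. For Gap43 it held 97.4% and for Sprr1a 120.4%. Relative to Nefl, Gap43, Sprr1a, Stmn2 and Tubb3 were each highest in that library. The ratio of Gap43 to Nefl was 0.360, against 0.164 to 0.185 in the other WT and 0.180 to 0.233 in Bmal1-/-. The ratio of Sprr1a to Nefl was 0.189 there, 0.0594 to 0.0810 in the other WT and 0.0857 to 0.144 in Bmal1-/-. Stmn2 to Nefl was 0.527 in WT replicate 3 against at most 0.434 in any other library, and Tubb3 to Nefl was 0.647 against at most 0.543. Without WT replicate 3, all Bmal1-/- ratios of Sprr1a to Nefl lay above all WT ratios, and those of Gap43 to Nefl overlapped.

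**Figure D3:**
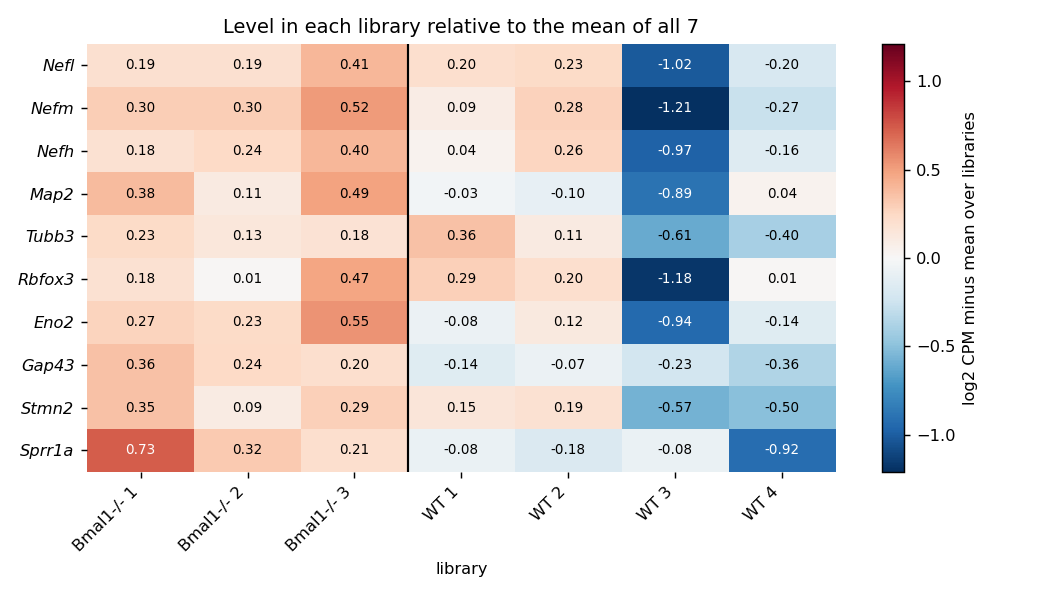
Each cell gives log2 CPM of a gene (rows) in a library (columns) minus the mean of that gene over the 7 libraries, red above and blue below 0. WT replicate 3 is deep blue from Nefl to Eno2 (-0.61 to -1.21) and pale for Gap43 (-0.23) and Sprr1a (-0.08).

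In the sensory ganglion markers, the defining sodium channel Scn10a, named after its values were seen, had 0, 0 and 1 counts in Bmal1-/- and 5925, 2770, 127 and 37 in WT. Mrgprd, a receptor of nociceptors named in the same way, had 0, 1 and 0 counts in Bmal1-/- and 769, 275, 13 and 4 in WT. Of the 12 markers 11 had a negative log2 fold change. edgeR called 0 of them with all libraries, where it called 1.57% of all genes in either direction. At an unadjusted p under 0.05, 1 was higher and 7 were lower, and the share of all genes that were lower is not given here. edgeR called 1 without WT replicate 3 and 3 with sex as a covariate. DESeq2 called 6, and over all genes it called 922 lower and 573 higher. Ganglion neurons also express the neurofilament, tubulin and growth genes, and the part of this RNA in the members' differences was not tested. With WT replicates 1 and 2 left out the median of the sensory list was 0.03. Scn10a and Mrgprd were still higher in WT replicates 3 and 4 than in any Bmal1-/- library, while Prph and Calca were lower there. In that comparison the members' log2 fold changes ran from 0.56 (Gap43) to 1.04 (Nefm). edgeR called none of the 10 in that comparison (adjusted p from 0.0931 to 0.242). 8 of the 10 had an unadjusted p under 0.05, where 13.3% of all genes were higher by that rule, and 9 had all Bmal1-/- values above both remaining WT values, which held for 27.2% of all genes. That comparison rests on WT replicates 3 and 4, which include the library poorest in neuronal RNA. Both are male, so it sets 2 female and 1 male Bmal1-/- mice against male WT alone. Sex and genotype cannot be fully told apart in it.

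**Figure D4:**
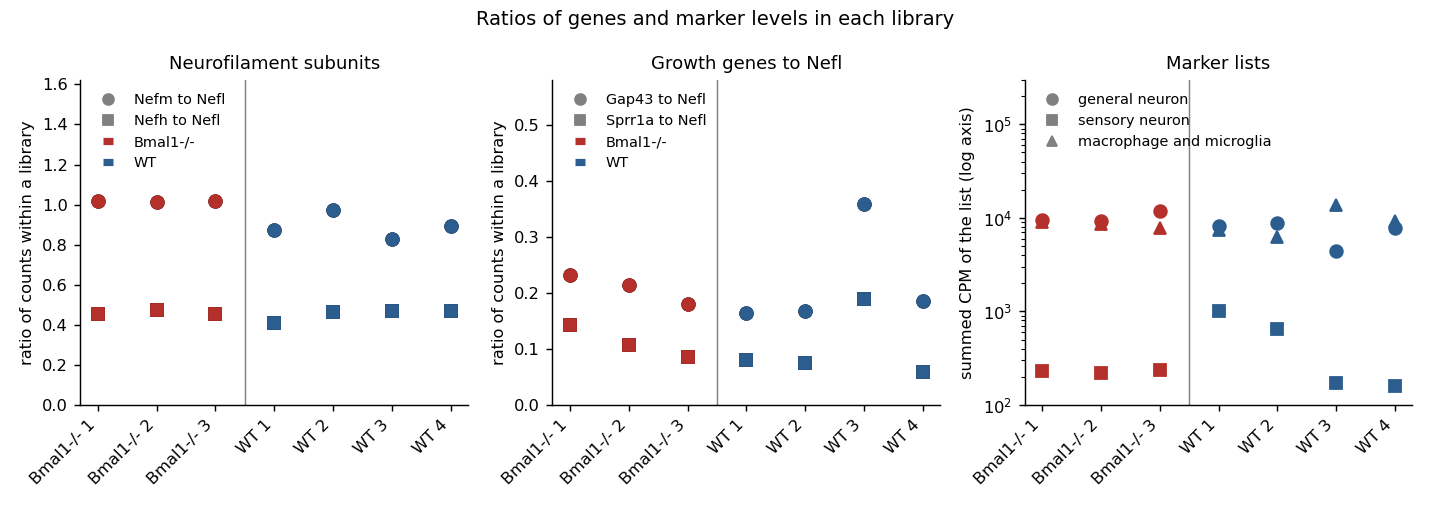
Ratios of counts within each library for the neurofilament chains (left) and for Gap43 and Sprr1a to Nefl (middle), and summed CPM of 3 marker lists on a log axis (right), in Bmal1-/- (red) and WT (blue). The Nefm to Nefl ratio is near 1.016 in all Bmal1-/- libraries, both ratios of the middle panel peak in WT replicate 3, and the sensory neuron sum is highest in WT replicates 1 and 2 (1002 and 656 CPM).

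Sex ran through the same libraries, because WT replicates 1 and 2 were the female WT and WT replicate 3 was one of the male WT. Among females, the log2 ratio of the Bmal1-/- mean to the WT mean was positive for 7 members and negative for 3 (Nefl -0.02, Tubb3 -0.06 and Rbfox3 -0.15). The 1 Bmal1-/- male was above the mean of the 2 WT males for all 10. Gap43 had similar ratios in females and males (0.41 and 0.50), as did Sprr1a (0.67 and 0.65), while Nefm had 0.11 and 1.18. No member passed a test of the genotype by sex interaction (adjusted p from 0.400 to 0.984 from edgeR), and at an unadjusted p under 0.05 it gave Tubb3 (0.0151) and Stmn2 (0.00751) among the 10 and 12.3% of all genes. With 1 Bmal1-/- male, and with the summed ganglion markers highest in the female WT, a sex difference cannot be told apart from single libraries.

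Levels of the members were ranked per kilobase of annotated exon. In Bmal1-/-, Nefl was highest at 438 ± 38.5 CPM per kb (SD, n = 3), then Tubb3 at 363 ± 11.9 and Nefm at 260.1 ± 23.1. Sprr1a (203 ± 40.7), Gap43 (202 ± 11.2) and Nefh (171 ± 13.7) followed, with Sprr1a and Gap43 within their spread of each other. Eno2 (136), Stmn2 (101), Map2 (48.0) and Rbfox3 (13.7) were lower. In WT the order of the first 3 was the same, at 335 ± 115, 302 ± 92.7 and 177 ± 68.2 CPM per kb (SD, n = 4), but Nefl and Tubb3 lay within their spread, as did Nefm, Gap43 (146), Nefh (128) and Sprr1a (124). The length is the union of all annotated exons, so a gene with long, rarely used exons is understated on this scale.

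The members were then placed in 4 wider lists. Over all genes, 8.64% were higher at an unadjusted p under 0.05, and the share that were lower is not given here. The axonal cytoskeleton list held 33 genes, 6 of them members, with 0 called by edgeR, DESeq2 or limma-voom and 5 at an unadjusted p under 0.05 (Map2, Ina, Tuba4a and Dclk1 higher and Tubb2b lower, named after their values were seen). 28 of the 33 log2 fold changes were positive, with a median of 0.29, or 0.28 over the 27 genes that are not members. Map1b, which stabilizes axonal microtubules, had 1350 against 983 CPM (log2 fold change 0.46, adjusted p = 0.325), while Tubb4a, a beta-tubulin also used by oligodendrocytes, had 1201 against 1186 CPM (0.02, adjusted p = 0.935). At the ends of the list were Ina, the internexin that assembles with the neurofilament chains (0.68, adjusted p = 0.236), and Prph, the peripherin of peripheral neurons (-0.95, adjusted p = 0.348), both singled out after their values were seen. Prph was counted at 81.8 to 88.1 CPM in Bmal1-/- and at 295, 231, 67.7 and 59.8 CPM in WT. Its high values were those of the pair of libraries with the highest sums of sensory markers. WT replicate 3 was the lowest library for 25 of the 33 genes, and without it the median was 0.17.

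The axonal transport list of 22 motor proteins and adaptors gave 0 called by edgeR or DESeq2 and 1 gene at an unadjusted p under 0.05, Hap1 (0.46), an adaptor of dynein and kinesin named after its values were seen. The median was 0.25, with 17 of 22 positive, and 0.10 without WT replicate 3. Kif5a, the neuronal kinesin heavy chain, had 1217 against 1024 CPM (0.25, adjusted p = 0.522), and Kif1b, a kinesin that carries synaptic vesicle precursors and mitochondria, had 1050.2 against 869 CPM (0.27, adjusted p = 0.356).

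In the general neuron list all 24 genes tested had a positive log2 fold change, with a median of 0.53. edgeR's test called 0 of them and DESeq2 1 (Gad1, which makes GABA, 0.84 there). At an unadjusted p under 0.05, 5 were higher (among them Thy1, Syp, Eno2 and Gad1, named after their values were seen), where 8.64% of all genes were higher by that rule. For 14 all Bmal1-/- values lay above all WT values, which held for 13.4% of all genes. The 24 genes are not independent, since they were measured in the same libraries, and WT replicate 3 was the lowest library for all 24. Snap25, a synaptic fusion protein, had 1428 against 910.01 CPM (0.65, adjusted p = 0.269). The median of this list was 0.33 without WT replicate 3 and 0.84 without WT replicates 1 and 2, so it moved with the same libraries as the neurofilament genes.

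The regeneration-associated list of 34 genes showed no common direction: 17 log2 fold changes were positive and 17 negative, with a median of -0.01, and -0.11 over the 31 that are not members. Npy, a neuropeptide that injured neurons induce, was the gene called. It was counted at 25.4, 20.6 and 22.6 CPM in Bmal1-/- and at 17.0, 15.6, 15.7 and 14.4 CPM in WT, without overlap. Its log2 fold change was 0.54 (SE 0.10, adjusted p = 0.0448 from edgeR), and it was called in 4 of 15 alternative settings with an adjusted p from 5.56e-05 to 0.354. Among those that left out 1 library it was called without WT replicate 3 and lost without any other. At an unadjusted p under 0.05, 7 genes of the list were higher, where 8.64% of all genes were higher by that rule. Another 7 were lower, and the share of all genes that were lower is not given here. Named after their values were seen, the other higher ones were Gap43, Sprr1a, the neuropeptides Vip (0.67) and Adcyap1 (0.53), the peptidase Ecel1 (0.57) and the growth cone protein Basp1 (0.19). The lower ones were Arg1 (-1.26), Cd44 (-0.57), Lgals1 (-0.57), Anxa2 (-0.56), Crip2 (-0.64), Csrp3 (-2.82) and Tubb2b (-0.43), of which Arg1, Cd44, Lgals1 and Anxa2 are also used by macrophages and other non-neuronal cells, and Csrp3 by muscle. The injury transcription factors Jun and Atf3, which act upstream of several of these genes in injured neurons, had 140.0 against 138.8 CPM and 65.1 against 59.3 CPM (adjusted p = 0.940 and 0.658).

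**Figure D5:**
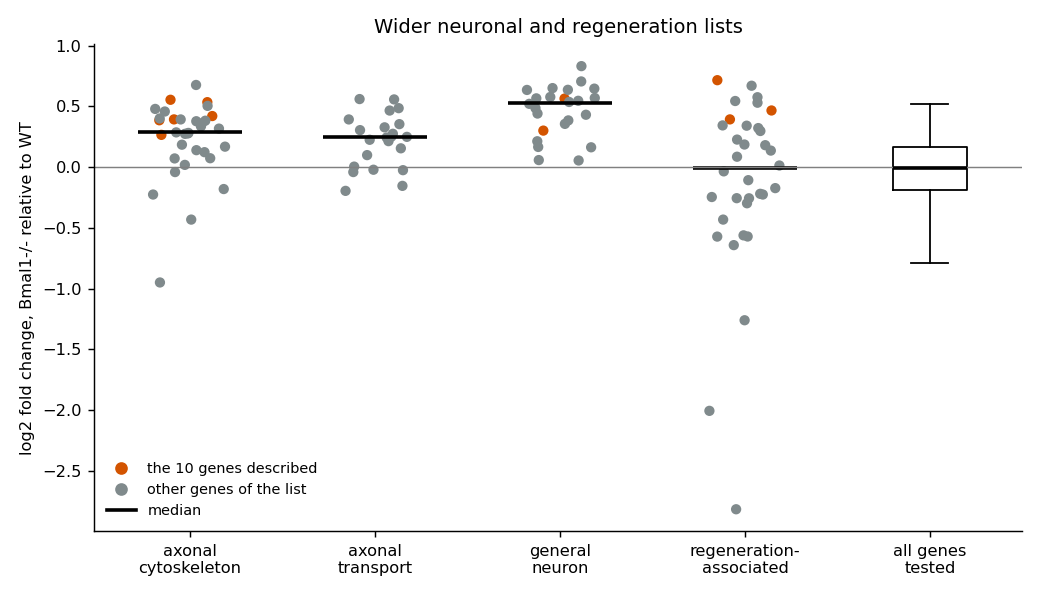
log2 fold change of Bmal1-/- relative to WT (y axis) for each gene of 4 lists, with the 10 genes described in orange and list medians as black bars, beside all 15743 genes tested (box from the lower to the upper quartile, whiskers at the 5th and 95th percentiles). The general neuron genes all lie above 0 (median 0.53), while the regeneration-associated genes spread to both sides (median -0.01).

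Among markers of the other cells that the segment could hold, skeletal muscle stood out. Over all genes, edgeR called 1.57% in either direction. All 14 muscle genes had a negative log2 fold change and 11 were called lower, with a summed level of 18.1 to 19.6 CPM in Bmal1-/- and 79.7 to 100.9 CPM in WT. Of the called genes, those with the largest falls were Atp2a1 (-3.62), Ckm (-3.57), Myh1 (-3.38) and Tnnc2 (-3.34). Of 12 Schwann cell genes 2 were called lower, Egr2 (-1.09) and Cdh19 (-0.89), with a median of -0.75. Des, an intermediate filament of muscle and pericytes, fell by 1.85 on the log2 scale (adjusted p = 0.0312) and was the gene called in a list of 5 filament genes of other cells, in which Gfap of astrocytes had 0.42 (adjusted p = 0.270). With each library left out in turn, 5 to 13 of the muscle genes were called, fewest without Bmal1-/- replicate 1 (5), Bmal1-/- replicate 3 (6) and WT replicate 1 (7), and the median of the muscle list was -2.98 without WT replicate 1 against -3.03 with all libraries. Of the Schwann cell genes 0 to 3 were called in this way, with 0 without Bmal1-/- replicate 1, Bmal1-/- replicate 3 or WT replicate 1 and 1 without WT replicate 2 or 4. Des was called without WT replicate 3 or 4 and lost without any other library. With all libraries, edgeR called no gene among the lists for motor neurons (9 genes, median 0.57), astrocytes (11, 0.02), oligodendrocytes (11, 0.04), OPCs (10, 0.14) and macrophages and microglia (14, -0.18), where 2, 5, 2, 3 and 1 genes had an unadjusted p under 0.05. Of all genes, 8.64% were higher at that unadjusted threshold, and the share that were lower is not given here. DESeq2 called 1 motor neuron gene and 2 astrocyte genes, and edgeR without WT replicate 3 called 2 astrocyte genes and 1 OPC gene. Among the most abundant genes of these lists, log2 fold changes were 0.42 (Gfap) and 0.53 (Slc1a2) in astrocytes, -0.28 (Mbp) in oligodendrocytes and 0.09 (Olig1) and 0.48 (Gpr17) in OPCs. They were -0.20 (Lyz2) and -0.11 (Spp1) in macrophages and microglia and 0.45 (Krt10) and 0.42 (Lor) in keratinocytes. The part of these cells in the members' differences was not tested.

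By profile across the 7 libraries, after centring log2 CPM on its mean, the genes most like Nefl were Sult4a1 (root-mean-square difference 0.0236), Slc6a15 (0.0445) and Gdap1 (0.0523). Those most like Gap43 were Fxyd7 (0.0447), Rb1 (0.0742) and Rrad (0.0795). Sprr1a had no close match: its nearest were Cryba2 (0.148), 2010005H15Rik (0.157) and Asb4 (0.166), all of low level. These were picked from 14348 genes with a mean of at least 1 CPM and are descriptions.

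BMAL1 binds E-boxes, and CACGTG is the letters of the canonical one. RefSeq promoter windows (GRCm38.p6), from 250 bases before to 50 bases after a start site, were at hand for 5 members: Map2, Tubb3, Rbfox3, Eno2 and Sprr1a. CACGTG, which reads the same on both strands, was in 0 of the 5 and in 7.15% of all 32851 windows. The window of Rbfox3 (chr11:118760992-118761291) lies inside the annotated gene, so the sequence at its annotated 5′ end was not examined. TGANTCA, the letters that AP-1 factors such as the dimer of JUN and FOS bind, was searched after the values were seen. It was in Sprr1a alone of the 5 and in 7.81% of all windows. The windows of Sprr1a and Map2 are shown because these 2 genes differ most in base composition: Sprr1a holds 48.7% G and C with 0 CpG pairs, and Map2 77.7% with 37 CpG pairs, where the median window holds 52.7%. Each is given for the 250 bases before the start site, 5′ to 3′ on the strand of the gene, for Sprr1a at chr3:92485882-92486131 and for Map2 at chr1:66175079-66175328.
Sprr1a: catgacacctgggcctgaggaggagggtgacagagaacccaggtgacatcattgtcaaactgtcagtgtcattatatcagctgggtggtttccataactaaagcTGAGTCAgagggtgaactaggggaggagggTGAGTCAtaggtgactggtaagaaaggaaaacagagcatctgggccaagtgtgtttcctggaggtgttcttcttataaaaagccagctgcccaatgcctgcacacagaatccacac
Map2: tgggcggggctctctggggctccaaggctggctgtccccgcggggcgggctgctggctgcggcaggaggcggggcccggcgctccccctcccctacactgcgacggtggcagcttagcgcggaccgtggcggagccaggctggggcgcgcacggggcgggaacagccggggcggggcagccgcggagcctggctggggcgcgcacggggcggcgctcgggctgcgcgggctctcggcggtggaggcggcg
The capitals mark TGANTCA, which occurs 2 times in Sprr1a as TGAGTCA, beginning 146 and 116 bases before the start site. A match of letters is a description and not a binding site.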

How the data were processed

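The authors made stranded poly-A libraries (TruSeq), mapped them with Tophat2 to GRCm38, ran HTSeq 0.10.0 for gene counts and deposited these raw counts without normalization. The annotation release and strand setting are not given in the sources used here. Counts were filtered with filterByExpr on genotype (15743 of 21965 genes), scaled by TMM and tested with edgeR 4.0.16's quasi-likelihood test (R 4.3.3), with Benjamini-Hochberg adjustment over all genes tested and a threshold of 0.05. Standard errors come from the log2 fold change and its F value. Symbols, positions and exon lengths came from GENCODE vM21, matched to 21939 IDs. The methods were tested on simulated data. Plots used matplotlib 3.10.9.

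The members and the 14 lists were chosen with earlier results of these data known. All members were named, with the called genes of each list (at most 4 in each direction) or else its 2 most abundant genes. Some genes that meet this rule are not reported here. Alternatives were DESeq2 1.42.0, limma-voom (limma 3.58.1), RLE factors, upper-quartile scaling, no filter beyond 1 count, sex as a covariate, a replicate block and each library left out. Leaving out WT replicates 1 and 2 was chosen after seeing the data. Each library is 1 mouse, and replicate pairs differed by more than sampling noise. Protein sequences and the promoters of the other 5 members were not used here.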

Additional observations from a re-analysis of the deposited data

Results flagged for a closer look

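Sprr1a in the WT libraries was the one result flagged for a sample far from the others. WT replicate 4 was counted at 63.8 CPM, against 107 to 114 CPM in the other WT libraries. Its gap to the nearest library was 0.85 of the range of the group, above the critical value of Dixon's test for 4 samples at the 95% level. Chance alone flags about 1 in 20 such groups, and 10 groups were examined, 1 for each gene. Without WT replicate 4 the log2 fold change of Sprr1a was 0.55 (adjusted p = 0.159 from edgeR) against 0.71 with it. Gap43 was also lowest in that library, at 198 CPM.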

How the results depend on the processing

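All 10 members kept a positive log2 fold change under all 15 alternatives (150 of 150 values), and other scalings moved the median of all genes only between -0.03 and 0.00. The 150 values are not independent, since the alternatives refit the same libraries. The share of all genes that kept their sign is not given here. Of the members 0 were called, against 2 with DESeq2, 1 with RLE size factors and 0 to 1 with each library left out (1 without WT replicate 3, Gap43). General neuron genes called went from 0 to 1 with DESeq2 and 0 to 1 with single libraries left out (Gad1, without WT replicate 3). Regeneration-associated genes called went from 1 to 8 with DESeq2, 2 with RLE size factors, 0 with limma-voom, upper-quartile scaling, sex as a covariate or WT replicates 1 and 2 left out, and 0 to 2 with single libraries left out.

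Over all genes, 144 were called lower and 103 higher. DESeq2 gave 922 and 573, and leaving out WT replicates 1 and 2 gave 15 and 26. Single libraries left out gave 27 to 439 lower and 30 to 291 higher. A replicate block, in which WT replicate 4 has a level of its own and so adds nothing to the genotype estimate, gave 0 lower and 0 higher, with 0 members and 0 regeneration-associated genes called. Equal numbers did not pair the samples: the correlations of deviations at numbers 1, 2 and 3 were -0.17, 0.18 and -0.29, and Bmal1-/- replicate 1 correlated best with WT replicate 3. The cause of these shifts was not tested. With 3 against 4 mice, the 95% interval of Nefm reached from -0.19 to 1.29, so 0 and a log2 change of 1 both lay inside it, and depth was not the limit.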

Other observations

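The cholinergic genes of motor neurons, whose axons are rich in neurofilaments, had positive log2 fold changes. These were Chat 0.73, Slc18a3 0.57, Slc5a7 0.70 and Ache 0.57 (142 against 95.6 CPM, adjusted p = 0.239 from edgeR). Mnx1, a transcription factor of motor neurons, had 0.77, from only 15 to 70 counts per library and with overlapping groups. edgeR called none of these genes. The other 4 genes of that list, Prph (-0.95), Calca (-0.65), Calcb (-0.86) and Isl1 (-1.49), were negative, and Prph, Calca and Isl1 are also on the list of sensory neuron genes. Calca was counted at 54.5 to 59.2 CPM in Bmal1-/- and at 174, 117, 40.6 and 25.1 CPM in WT replicates 1 to 4, so it too was highest in WT replicates 1 and 2.

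Some cytoskeletal genes of immature and growing neurons did not share the direction of the members. Tubb2b had 243 against 328 CPM, with all Bmal1-/- values below all WT values (log2 fold change -0.43, unadjusted p = 0.0184, adjusted p = 0.175). Dpysl3 had -0.23 (adjusted p = 0.461) and Stmn1 -0.18 (adjusted p = 0.280), while Dcx of migrating neuroblasts had 0.32 (adjusted p = 0.344). These genes are also used by glial progenitors and other dividing cells. They were singled out after their values were seen, from the axonal cytoskeleton list, in which 28 of the 33 log2 fold changes were positive.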
